A study of Mus musculus with 221 samples.

Results

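Hemogenic endothelium of the yolk sac arteries (HE YSA) was compared between an early state, cluster a1, and a late state, cluster a2. Of 221 single mouse cells in the series, 57 carried a label of this population, 27 early and 30 late. The 52 cells with at least 17595 estimated counts were used, 23 early and 29 late, while 5 cells below this limit were left out; the same limit kept 208 of all 221 cells. The cells were primary yolk sac (YS) cells of wild-type CD-1 females crossed with males of the Gfi1-GFP or Runx1b-RFP reporter lines (C57BL/6JOlaHsd). The study sorted its YS HE as KIT+ CD31+ CD41- CD45- TER119- cells positive for the RUNX1 reporter and positive or negative for the GFI1 reporter. By library name, 14 of 23 early and 21 of 29 late cells were from the embryonic stage E10.5, 7 and 7 from E9.5 and 1 and 1 from E9.0, and 1 early cell had no stage. The names of 18 early and 28 late cells carried Gfi1 as the only sort label, and those of 4 early cells and no late cell carried Runx1. Of the remaining cells, 1 early and 1 late cell had AGM (aorta–gonad–mesonephros region) in the library name, against the tissue label. The name of this early cell also carried ACE, which is not part of the sort above, and that of the late cell Gfi1. A further early cell, among those named Runx1, came from a cDNA project that otherwise held AGM cells.

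Hemogenic endothelium is the vessel lining that gives rise to blood. In the endothelial-to-hematopoietic transition (EHT), a flat cell held to its neighbors by endothelial junctions turns off vessel genes, turns on blood genes under transcription factors such as RUNX1 and GFI1, rounds up and leaves the wall. Arterial endothelium is marked by connexins, Notch signaling and SOX17, and yolk sac HE gives rise to progenitors before and alongside the stem cells that arise in the embryo's aorta.

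The cDNA of each cell, made by Smart-seq2 and sequenced before as short reads, was sequenced again as long reads in 3 nanopore runs, which held 8, 7 and 8 early and 10, 10 and 9 late cells. The total per cell ranged from 18543 to 71389 counts in the early group (median 32130) and from 19105 to 65629 in the late group (median 34541), with a median of 3755 and 4058 genes per cell. No embryo or litter was named for a cell, so each group counted as 1 sample, and no test, p-value or standard error could be given. The early and late clusters were cut from short reads of these same cells, so gene levels describe the clusters and are not independent evidence that they differ. The spread is given over the 3 runs, which held different cells, and intervals are 95% exact Poisson intervals for levels and binomial intervals for ratios and shares. They cover counting error only, since amplified reads without molecular identifiers are not independent molecules.

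A gene's level is its summed count divided by the group's total and scaled to CPM, without a correction for length, so levels are compared between groups and not between genes. A gene was called higher or lower in the late group when the CPM of all cells differed at least 2-fold and the difference had the same sign in each of the 3 runs. Of 4631 genes with at least 50 counts in all and a count in at least 10 cells, 173 rose (3.74%) and 220 fell (4.75%) from early to late, 393 together (8.49%). Without the rule on runs, 278 and 289 genes were past 2-fold, and 37 and 69 were past 2-fold in each run. For 68 of the 393 genes, 1 group had no count in at least 1 run, and for 3 of them both groups had none, so that the sign of that run came from the 0.5 counts added to each sum. Without the 3 cells whose names or project point to the AGM, leaving 21 early and 28 late cells, 169 genes rose and 222 fell, 145 and 191 of them the same genes, the medians of the lists below were -0.96 (endothelial), -2.51 (arterial), 0.21 (blood transcription factors) and 0.61 (blood surface), and 170 genes passed the isoform limit.

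Vessel genes fell. Of 25 endothelial identity genes that passed the count minimum, among 32 listed, 12 fell and none rose, and of 9 arterial genes, among 20 listed, 5 fell and none rose. The lists share 1 gene, and together 16 of 33 genes fell, beside 4.75% of all genes. The median log2 ratio, late over early, was -0.99 for the endothelial list and -2.43 for the arterial list, beside 0.04 over all 4631 genes. The members that fell included the arterial connexin genes Gja4 and Gja5, the main claudin of endothelial tight junctions, VE-cadherin, a VEGF receptor and SOX factors.

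The connexin genes Gja5 (ENSMUSG00000057123) and Gja4 (ENSMUSG00000050234) and the claudin gene Cldn5 (ENSMUSG00000041378) fell in each run, and the 250 bases before their start sites (RefSeq, GRCm38.p6) are shown because genes that move together may share promoter letters. The capitals mark AGGAAG, a core of ETS factor sites. Gja5, chr3:97032152-97032401, plus strand; Gja4, chr4:127314040-127314289, minus strand; and Cldn5, chr16:18776597-18776846, plus strand, read 5′ to 3′ as follows.
Gja5: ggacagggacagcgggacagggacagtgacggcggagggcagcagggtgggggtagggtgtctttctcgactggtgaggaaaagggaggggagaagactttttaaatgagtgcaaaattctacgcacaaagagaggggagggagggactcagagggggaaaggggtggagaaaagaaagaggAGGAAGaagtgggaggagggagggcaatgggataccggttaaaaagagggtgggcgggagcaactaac
Gja4: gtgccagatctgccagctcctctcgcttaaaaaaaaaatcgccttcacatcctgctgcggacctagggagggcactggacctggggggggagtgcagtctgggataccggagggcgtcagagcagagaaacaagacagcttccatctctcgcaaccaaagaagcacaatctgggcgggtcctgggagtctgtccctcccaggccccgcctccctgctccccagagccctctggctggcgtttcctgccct
Cldn5: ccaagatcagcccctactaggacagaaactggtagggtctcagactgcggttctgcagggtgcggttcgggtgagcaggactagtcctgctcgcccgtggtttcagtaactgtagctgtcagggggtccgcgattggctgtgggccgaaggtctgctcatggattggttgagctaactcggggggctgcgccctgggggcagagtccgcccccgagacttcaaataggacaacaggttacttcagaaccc

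Searched on both strands, AGGAAG began 68 bases before the start of Gja5 and was in neither of the other windows. Of the 16 endothelial and arterial genes that fell, 7 had a promoter of this length in the table, and 3 of these (Gja5, Nrp1 and Rasip1) held AGGAAG, as did 29.2% of 27025 promoters. TGTGGT, a core of RUNX sites, was in none of the 7 and in 14.2% of all promoters. The letters AGATAA of GATA factors were likewise in none of the 7, and in 10.3% of all promoters. For SOX factors, ACAATG gave none of 7 and 10.99%. For the E-box, CACGTG gave none of 7 and 6.05%. A match of letters is a description and not a binding site.

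Gja4, which encodes connexin 37 of arterial gap junctions, was read in every early cell. Its level was 1279, 920.5 and 1212 CPM in the early cells of runs 1, 2 and 3, and 249, 240 and 132 CPM in the late cells. It was read in 15 of 29 late cells, with a lowest, median and highest level of 145, 1272 and 2077 CPM in early and 0, 17.7 and 1437 CPM in late cells. The single cells therefore overlapped, but the runs did not, and the level over all cells fell by 2.50 on the log2 scale (interval 2.29 to 2.72).
Gja5, which encodes connexin 40 of arteries, had 485, 497 and 422 CPM in early and 90.1, 79.9 and 43.3 CPM in late runs. It was detected in 19 of 23 early and 8 of 29 late cells (medians 333 and 0 CPM). It fell by 2.71 on the log2 scale (2.36 to 3.09), and other genes overlap it on the opposite strand, from which reads without strand cannot be told apart.
Cldn5, the claudin of endothelial tight junctions, went from 2016, 1145 and 1678 CPM to 709, 423 and 593 CPM. It stayed detected in 25 of 29 late cells, so that it fell in level (log2 ratio -1.45, -1.59 to -1.31) more than in the number of cells.

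Transcription factors of the vessel wall fell with the junction genes. Sox17, a factor needed for arterial identity and HE, went from 370 to 100.5 CPM and from 20 of 23 to 10 of 29 cells, with log2 ratios of -1.76, -0.85 and -3.95 in the runs. Sox7, a related factor, went from 67.8 to 8.45 CPM (log2 ratio -2.94), and Epas1, which encodes the hypoxia-inducible factor HIF-2α, from 127 to 15.02 CPM (-3.05). Ets1 (-1.77), an ETS factor of endothelium, fell as well. The opposite sign was seen for Erg, an ETS factor of both endothelium and blood stem cells, with 14.3 and 38.5 CPM, but its sign differed between runs (-0.38, 4.53 and 1.33), so it was not called.

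Receptors and surface genes gave the same picture with more exceptions. Nrp1, a co-receptor of VEGF, fell from 209 to 38.5 CPM (-2.43), and Kdr, which encodes VEGF receptor 2, from 69.0 to 18.8 CPM (-1.85), with early runs at 60.2, 90.8 and 61.2 CPM and late runs at 23.7, 19.96 and 12.7 CPM. Tek (-1.27), the angiopoietin receptor, Plvap (-1.56), a protein of endothelial fenestrae, and Ecscr, Icam2, Tspan18 and Rasip1 (-1.29 to -1.15) fell. Cdh5 (VE-cadherin), the adhesion molecule that defines endothelium, fell by 1.04 on the log2 scale, just past 2-fold, with 256, 398 and 216 CPM in early and 154, 144 and 110 CPM in late runs, and it was below 2-fold among E10.5 cells alone. Pecam1, which encodes the CD31 used in the sort, had 283 and 185 CPM (log2 ratio -0.61, with 0.02 in run 1) and was not called. Mcam, an adhesion molecule of the endothelial end of EHT, had 21 counts in 8 early cells and none in late cells, at least 8.87-fold lower against a floor of 3 counts over the group, but it was below the count minimum.

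Some vessel genes did not pass the limit. Procr, which encodes the protein C receptor found on endothelium and blood stem cells, had 487 and 624 CPM (log2 ratio 0.36), in 20 of 23 early and 25 of 29 late cells. Vwf, von Willebrand factor, which the study used to mark this population, had 246 and 166 CPM (log2 ratio -0.57), and Mecom, a factor of endothelium and stem cells, had 137 and 89.2 CPM. Hey1, a Notch target, had 267, 17.3 and 157 CPM in early and 0, 51.9 and 5.09 CPM in late runs, so the sign turned in run 2 and it was not called despite a log2 ratio of -3.40. Of the 19 listed Notch pathway genes 4 passed the count minimum and none was called, and the receptors Notch1 and Notch4 and the ligand Dll4 were below it.

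Summed over the list, endothelial identity genes held 6044 to 16050 CPM in early cells (median 11003) and 1816 to 9659 CPM in late cells (median 5513). All 29 late cells were below the early median and 17 were below every early cell. The 20 arterial genes held 960 to 4834 CPM in early cells (median 3418) and 0 to 2521 CPM in late cells (median 619), with 18 late cells below every early cell. Within the runs, the median log2 ratio of the endothelial list was between -0.95 and -0.78, while it lay between -0.35 and 0.06 when runs of the same group were set against each other. For the arterial list these ranges were -3.25 to -0.85 and -1.20 to 0.39, which overlapped. In a cell sum, a lower level of vessel RNA per cell and a larger share of other RNA cannot be told apart.

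**Figure D1:**
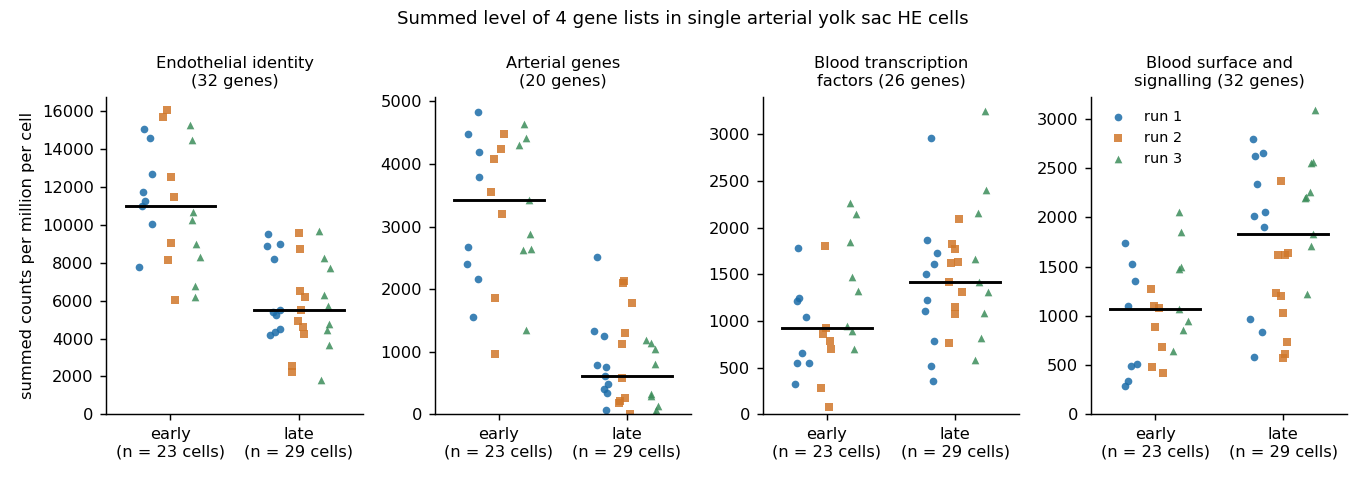
Summed CPM of 4 gene lists in each cell (y axis, linear), for 23 early and 29 late cells, with colors and symbols for the 3 nanopore runs and a black bar at the group median. Endothelial cell sums have medians of 11003 and 5513 CPM and arterial sums 3418 and 619 CPM, while both blood lists overlap widely between the groups.

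Some blood genes rose. Of 9 blood surface and signaling genes that passed the count minimum, among 32 listed, 4 rose and 1 fell (median log2 ratio 0.66), and of 15 blood transcription factors, among 26 listed, 1 rose and 1 fell (median 0.27), beside 3.74% and 4.75% of all genes. Myb, a transcription factor of definitive blood progenitors, had 1 count in 1 early cell and 77 counts in 10 late cells (log2 ratio 5.35, counting interval 3.40 to 11.25).

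Adgrg1 (GPR56), an adhesion receptor of blood stem cells and HE, rose from 124 to 417 CPM. It had 60.2, 130 and 169 CPM in early and 560, 224 and 387 CPM in late runs, and it was detected in 14 of 23 early and 27 of 29 late cells (log2 ratio 1.75, 1.44 to 2.07). Coro1a, an actin regulator of blood cells, rose from 159 to 364 CPM (1.19). Kit rose from 44.0 to 146 CPM (1.72) and from 10 of 23 to 19 of 29 cells, but KIT was a gate of the sort for both groups. Cd93, a receptor of endothelium and early blood cells, fell from 63.1 to 21.6 CPM (-1.53), and the transcription factor Fli1, which acts in both lineages, from 67.8 to 15.02 CPM (-2.14).

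Most genes that define HE were not called. Runx1 had 18 counts in 4 early cells and 25 counts in 11 late cells (21.4 and 23.5 CPM), below the count minimum. Gfi1 had 99.9 CPM (79.7 to 124) and 121 CPM (101 to 144) in 14 of 23 and 22 of 29 cells (log2 ratio 0.27). Cells were sorted on reporters of Runx1 and Gfi1, so the levels of these genes are not independent of the sort. Mycn, which the study lists with Gfi1 as shared by HE populations, had 163 and 249 CPM (0.61), but its sign turned in run 1 (-0.83). Of the 6 measured genes of the 8 in the HE signature, Hapln1, which encodes a matrix linker, fell from 77.3 to 26.3 CPM (-1.54) and none rose; this list was chosen on short reads of these cells and is not independent evidence. None of 8 measured genes of the lymphomyeloid progenitor (LMP) list and none of 4 of the erythromyeloid progenitor (EMP) list was called, with medians of -0.15 and 0.13.
Ptprc (CD45) had no count and Itga2b (CD41) had 1 and 7 counts; both were negative gates of the sort. Cd24a, which the study used to sort this population, had 47.6 and 68.6 CPM (log2 ratio 0.52), and Lyve1, which marks the plexus, had 28 counts in 5 early and 47 counts in 4 late cells, of which 76.6% came from 1 late cell.

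In the cell sums, blood surface genes held 292 to 2057 CPM in early cells (median 1074) and 576 to 3084 CPM in late cells (median 1828), and 11 of 29 late cells were above every early cell. Blood transcription factors held 83.3 to 2259 CPM (median 925) and 353 to 3244 CPM (median 1417). The within-run medians of the blood surface list (0.78 to 0.95) were above those between runs of the same group (-0.64 to 0.69), whereas those of the transcription factors (0.28 to 0.42) lay inside the range between runs (0.10 to 0.86).

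Some matrix and cytoskeleton genes fell as well. Of 10 measured basement membrane and matrix genes 3 fell and none rose (median -0.82), beside 4.75% of all genes: Sparc, a collagen-binding matrix protein, went from 1971, 2342 and 2025 CPM to 674, 603 and 542 CPM (log2 ratio -1.78), Col4a2, a chain of basement membrane collagen, from 226 to 104 CPM (-1.11), and Fbn1, fibrillin, from 49.97 to 9.39 CPM (-2.36). Of 24 actin cytoskeleton genes 4 fell and none rose (median -0.51), beside 4.75% of all genes that fell. These were Tpm1, a tropomyosin (-1.30), Vim, the vimentin filament (-1.29), Cnn2, a calponin (-1.28), and Tmsb10, an actin-binding thymosin (-1.12). Vim encodes an intermediate filament protein that the list held with the actin genes. The other 20 were not called, Actb among them (-0.49), and at the other end Tpm3 and Cfl1 had log2 ratios of 0.20 and 0.03. The summed actin list held 25715 to 51893 CPM in early cells (median 35307) and 14728 to 45387 CPM in late cells (median 24432), and 17 of 29 late cells were below every early cell. Its within-run medians (-0.70 to -0.42) did not overlap those between runs of the same group (-0.21 to 0.25).

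Id3 and Id1, targets of BMP signaling that hold back bHLH factors, fell from 626 to 207 CPM (-1.60) and from 299 to 107 CPM (-1.48), and they are 2 of the 3 TGF-β and BMP pathway genes that passed the count minimum. In run 2, Id1 was nearly level (-0.06, with 229 and 220 CPM). Eng, which encodes the co-receptor endoglin, was the third, at 211 and 209 CPM. Of 13 fetal and imprinted growth genes 4 fell and none rose (median -0.25), beside 4.75% of all genes that fell. Mest, an imprinted gene of growing embryonic tissue, fell from 538, 730 and 385 CPM to 111, 67.9 and 115 CPM (-2.36), and Grb10 (-1.97), Peg3 (-1.75) and the noncoding Meg3 (-3.53), all imprinted, fell with it. Meg3 was found in 7 early and 3 late cells and had no count in either group in run 3. Igf2 and H19, chosen after their values were seen, had 10976 and 12379 CPM (log2 ratio 0.17) and 2083 and 1749 CPM (-0.25), so the imprinted genes did not move as 1 block.

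Copg2, a coat protein subunit, fell with Mest (406 to 64.8 CPM, -2.64), but it overlaps Mest on the opposite strand and its reads may in part be those of Mest. Among the other genes at least 2-fold lower in each run, Anxa2, a membrane-binding annexin, stood out for its even ratios: it had 628, 683 and 239 CPM in early and 85.4, 87.8 and 28 CPM in late runs (log2 ratios -2.86, -2.93 and -3.04). Dbn1 and Lasp1, both actin-binding proteins, fell from 170 to 30.05 CPM (-2.48) and from 102 to 18.2 CPM (-2.46), the RNA-binding protein gene Rbms1 from 115 to 20.7 CPM (-2.46), the centromere gene Cenpt from 168 to 38.5 CPM (-2.11), and AU021092 from 136 to 11.3 CPM (-3.54). In all, 36 genes with at least 100 counts were at least 2-fold lower in each run and 13 were at least 2-fold higher.

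The genes with at least 100 counts that were higher in each run were low in level, and of the 12 with the largest ratios Kit was on a blood gene list. Celf2, an RNA-binding regulator of splicing, rose from 14.3 to 86.4 CPM (log2 ratio 2.55, 1.72 to 3.60), from 5 of 23 to 12 of 29 cells. Lyz2, the lysozyme of myeloid cells, rose from 28.6 to 127 CPM (2.13) and from 6 to 19 cells, with 7.52, 43.2 and 34.96 CPM in early and 90.1, 99.8 and 183 CPM in late runs; reads of its close copy Lyz1 could be divided with it. Smyd2, a lysine methyltransferase, rose from 27.4 to 103 CPM (1.89), Mrps27, a mitochondrial ribosomal protein, from 26.2 to 96.7 CPM (1.86), and Fas, the death receptor, from 28.6 to 77.9 CPM (1.43). The others were the lncRNA ENSMUSG00000134149 (1.81), Fcho2 (1.67), an adaptor of endocytosis, Suclg2 (1.49), a subunit of succinyl-CoA ligase, Chrac1 (1.44), of a chromatin remodeling complex, Acyp1 (1.28) and Tax1bp1 (1.19), an autophagy receptor.

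**Figure D2:**
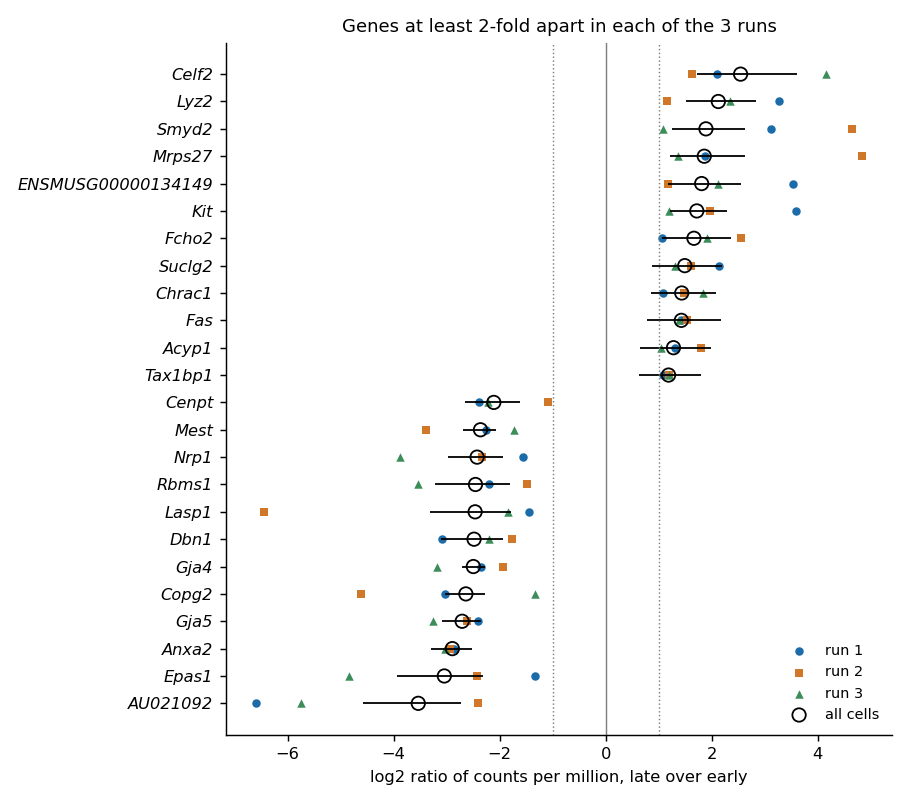
Log2 ratio of CPM, late over early, of the 12 highest and 12 lowest genes that were at least 2-fold apart in each run. Colored symbols are the 3 runs, open circles all cells and black lines the 95% counting interval, and the dotted lines mark 2-fold; the lowest gene is AU021092 (-3.54) and the highest Celf2 (2.55).

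Genes of growth and metabolism were mostly level. Over all genes, 8.49% were called, but of the 173 and 220 genes only 12 and 52 had at least 200 counts. The lists below were not compared with genes of like counts, so this share is no matched background for well-counted genes. No gene was called among 72 cytosolic ribosomal protein genes (median log2 ratio 0.14), 76 nuclear and 13 mitochondrial genes of oxidative phosphorylation (-0.02 and -0.03), 33 proteasome subunits (-0.01), 31 SR proteins and hnRNPs (-0.01), 22 S phase genes (0.18) and 20 G2/M genes (0.08). The G2/M median was -0.87, -0.06 and 1.79 in runs 1, 2 and 3, beside -2.48 to 0.51 between runs of the same group. Of 25 nucleolar and MYC-linked genes 3 rose and none fell (median 0.14), beside 3.74% of all genes that rose. These were Gar1, a box H/ACA snoRNA protein (18.8 to 70.0 CPM, 1.86), Nop2, an rRNA methyltransferase (23.8 to 61.5 CPM, 1.34), and Ran, the GTPase of nuclear transport (28.6 to 59.2 CPM, 1.03). Of 12 glycolysis genes 2 fell, beside 4.75% of all genes: Pgam1 (-1.28) and the glucose transporter gene Slc2a1 (-1.08). None of 5 flow-response genes and neither of 2 venous genes that passed the count minimum was called.

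Most markers of other cell types were at or near 0. Exceptions were Lyz2 and, in single cells, the plexus markers Stab2 and Lyve1 (up to 1042 CPM in a late cell) and the erythroid gene Hbb-y (up to 872 CPM in an early cell). The plexus gene Stab1 was read in 12 of 23 early and 2 of 29 late cells (27.4 and 1.88 CPM), below the count minimum. Stab2 had 20.2 CPM in early and 107 CPM in late cells, all of it from 1 early cell (708 CPM) and 1 late cell (2473 CPM). The 16 venous and plexus genes summed to 0 to 1041 CPM in early and 0 to 3449 CPM in late cells, above 0 in 19 and 15 cells. The 10 macrophage markers gave a sum above 0 in 7 of 23 early and 23 of 29 late cells (0 to 287 CPM and 0 to 576 CPM), most of it Lyz2, while C1qa, C1qb, C1qc, Adgre1, Cx3cr1 and Fcgr1 were at 0 and Csf1r had 3 and 13 counts. Erythroid markers were above 0 in 3 and 7 cells (highest 872 and 472 CPM), with Alas2 and Slc4a1 at 0, and megakaryocyte markers in 3 and 6 cells (highest 89.6 and 195 CPM), with Ppbp, Gp1bb, Gp5, Gp6 and Treml1 at 0. Mesenchyme markers were above 0 in 6 and 5 cells, with Col1a1, Col1a2, Col3a1 and Pdgfrb at 0, and yolk sac endoderm markers in 3 and 6 cells, with Afp, Ttr and Alb at 0. The part of such RNA in the rise of Lyz2 and Myb was not tested. Endothelial markers were still read in both groups: Cdh5 in 23 of 23 early and 22 of 29 late cells, and Pecam1 in 22 and 26. Pecam1 encodes a gate of the sort for both groups. The level of Cdh5 fell (log2 ratio -1.04), as did those of the further markers Kdr (-1.85) and Tek.

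The same step was set side by side with HE AGM (29 early cells of c3, 20 late of c4) and with HE of the YS plexus (HE YSP, 25 cells of b2, 24 of b3). By library name, most HE YSP cells and most cells of the YS progenitor cluster p1, used below, carried Runx1. A larger part of HE YSP than of arterial cells was from E9.0. HE AGM cells lay on other plates than nearly all YS cells, and most of their names gave no stage or reporter. Population, stage, sort and plate therefore cannot be told apart. Of the 220 genes that fell in arterial YS HE, 75.0% had a lower late level in HE AGM and 70.9% in HE YSP, beside 46.8% and 42.0% of all 4631 genes. Of the 173 that rose, 57.8% and 62.4% had a higher late level, beside 53.2% and 58.0%. These populations shared no cell with arterial YS HE, but their clusters were likewise cut from short reads, and a difference between populations was not tested. Gja4 had log2 ratios of -2.50, -3.75 and -4.14 in arterial YS HE, HE AGM and HE YSP, and Nrp1 -2.43, -3.32 and -3.94. Gja5 was near 0 in the plexus already early (10.6 CPM, beside 463 CPM in early arterial YS HE and 449.8 CPM in early HE AGM).

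Over all cells, the ratio of Procr was 0.36 in arterial YS HE, where it was not called. It was -2.81 in HE AGM (228 to 32.4 CPM) and -1.05 in HE YSP (396 to 191 CPM). Procr did not have the same sign in all arterial runs and the opposite sign in all runs of another population, and the difference was not tested. Myb was already at 70.1 CPM in early HE AGM, against 1.19 CPM in early arterial YS HE, and reached 150 CPM in late HE AGM and 72.3 CPM in late arterial YS HE. In the YS progenitor cluster p1 (17 cells), Gja5 was at 0, Gja4 at 6.09 CPM and Cldn5 at 53.3 CPM, below the late arterial cells, while Coro1a (780 CPM), Celf2 (184 CPM) and Lyz2 (178 CPM) were above them. Adgrg1 (302 CPM), Kit (97.5 CPM) and Myb (47.2 CPM) were lower in p1 than in late arterial cells.

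**Figure D3:**
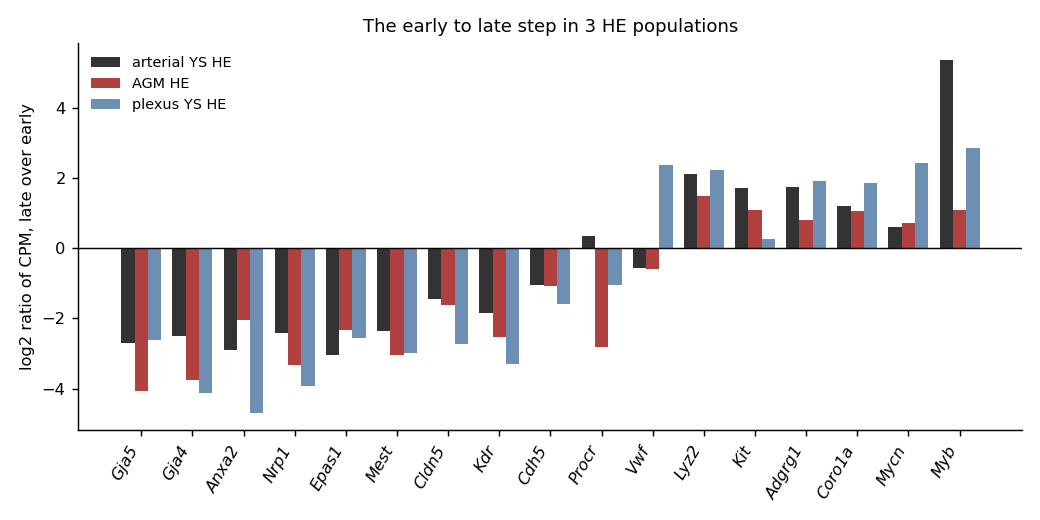
Log2 ratio of CPM, late over early, of 17 genes in 3 HE populations (y axis, linear, without error bars), for arterial YS HE (23 and 29 cells), AGM HE (29 and 20) and plexus YS HE (25 and 24). The bars of 9 vessel and growth genes from Gja5 to Cdh5 point down in all 3 populations, and Procr is 0.36 in arterial YS HE but -2.81 and -1.05 in the others.

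Across all genes, the agreement between runs was weak. The log2 ratios of runs 1 and 2 correlated with r = 0.008 across all 4631 genes, those of runs 1 and 3 with 0.108 and those of runs 2 and 3 with 0.156, and with -0.058, 0.164 and 0.301 across 727 genes with at least 500 counts. Genes are not independent replicates, and low counts lower these values. Early and late differed by at least 2-fold in 28.5%, 33.4% and 24.2% of genes within runs 1, 2 and 3, and different runs of the same group differed in 24.4% to 32.6%. Across all genes, early and late cells were thus slightly further apart than any pair of runs of the same group in run 2. They were within or below that range in runs 1 and 3. Among the 727 genes with at least 500 counts, the values were 7.15%, 8.12% and 6.05% within runs 1, 2 and 3. Runs of the same group differed there in 3.03% to 8.25%, so no run was beyond that range.

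**Figure D4:**
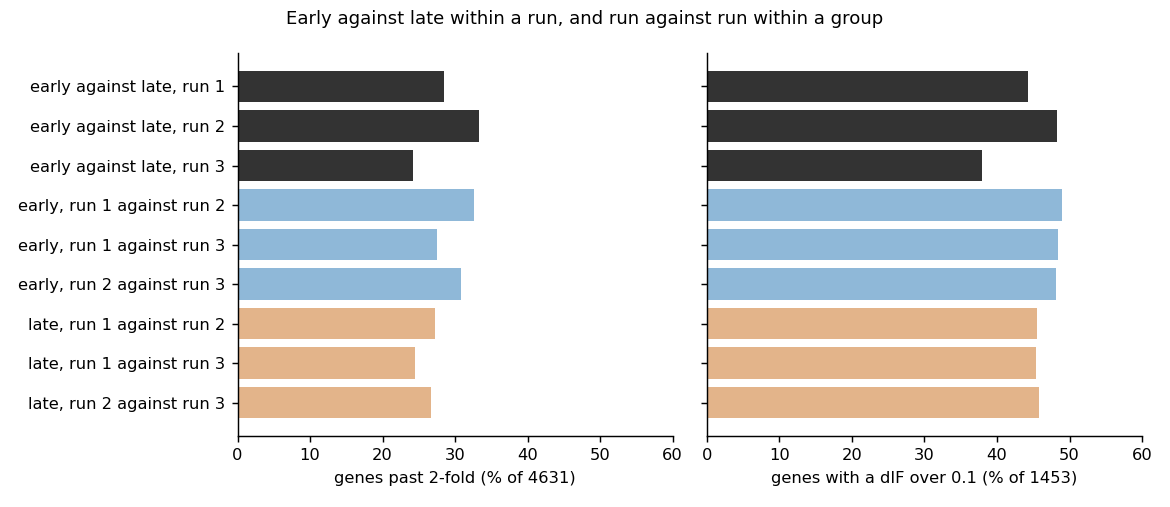
Percent of 4631 genes past 2-fold (left) and of 1453 genes with an isoform fraction difference over 0.1 (right), for early against late within each run (dark) and for pairs of runs within the early (blue) and late (orange) group. The dark bars lie at 24.2% to 33.4% and 37.9% to 48.3%, beside 24.4% to 32.6% and 45.4% to 48.9% for runs of the same group.

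Isoform use was read from the same reads. The isoform fraction is the share of a gene's counts given to 1 annotated transcript, and dIF is its difference, late minus early. Of 1453 genes with at least 50 counts per group and 10 in each group of each run, 181 (12.5%) had an isoform with a dIF over 0.1 in size and the same sign in each run, and 339 passed 0.1 whatever the sign by run. The called isoforms were 119 higher and 115 lower in late cells, of which 85 and 77 were protein-coding, 11 and 14 annotated for nonsense-mediated decay (NMD) and 10 and 13 retained introns. Only 5 of the 181 genes also passed the 2-fold limit on gene level. Within a run, 44.3%, 48.3% and 37.9% of genes had a dIF over 0.1, and between runs of the same group 45.4% to 48.9% had. Among 465 genes with at least 200 counts per group the values were 24.3%, 27.3% and 16.99% within runs and 23.9% to 34.8% between runs, so early and late did not differ in isoform use beyond the spread between runs.

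Among the 12 genes with the largest dIF, some were even between runs. Wdr1-201, the longest coding form of an actin-disassembly factor, held 56.5%, 60.9% and 53.5% of the gene's counts in early and 90.5%, 92.9% and 86.2% in late runs, or 56.2% (45.3 to 66.7) of 89 counts and 89.1% (78.8 to 95.5) of 64 counts over all cells. Col4a1-206, a short form of 1170 bases of a basement membrane collagen whose longest form here has 6615 bases, held 60.4% and 89.4%, and Ghitm-201, the longer form of an inner mitochondrial membrane protein gene, 58.3% and 31.2%. Hmgb3-206, a retained-intron form of a chromatin HMG protein gene, went from 59.4% to 32.4%. Hax1-210, an NMD form of an anti-apoptotic mitochondrial protein gene with 100 more bases in an exon it shares with the coding Hax1-201, went from 73.3% to 45.9%. Other called forms rested on fewer runs: Mrps17-207 went from 3.43% to 34.2% over all cells but from 6.16% to 7.62% in run 1, Dkc1-202 from 52.6% to 23.3% but from 47.2% to 43.9% in run 1, and Rbpms-202 from 51.7% to 24.2% but from 38.9% to 38.5% in run 3. Slc3a2-207 (34.8% to 65.8%), Nolc1-204 (38.6% to 67.4%) and Mapk1ip1l-202 (89.5% to 61.9%) moved by over 0.1 in each run.

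Ybx3, which encodes a cold-shock RNA-binding protein, had nearly the same level in both groups (log2 ratio -0.02), while the counted shares of its forms differed. The gene was picked by the size of this difference, which was not tested. Its coding forms Ybx3-201 and Ybx3-202 held 49.4% and 30.1% of counts in early and 31.2% and 8.19% in late cells, while Ybx3-205, of 838 bases and with no annotated coding sequence, went from 18.2% (10.48 to 28.05) to 45.6% (35.4 to 55.3). In the runs Ybx3-205 held 11.9% to 21.3% of counts in early and 38.8% to 50% in late cells. These shares rest on 83 counts in 11 early cells and 104 counts in 16 late cells. The coding sequences of Ybx3-201 and Ybx3-202 (1083 and 876 bases) differ by the length of exon 6 of 10 of Ybx3-201, which is shown for that reason: 207 bases, or 69 codons, at chr6:131375974-131376180, minus strand (GRCm38, GENCODE M21), which Ybx3-202 lacks.
Ybx3-201 exon 6: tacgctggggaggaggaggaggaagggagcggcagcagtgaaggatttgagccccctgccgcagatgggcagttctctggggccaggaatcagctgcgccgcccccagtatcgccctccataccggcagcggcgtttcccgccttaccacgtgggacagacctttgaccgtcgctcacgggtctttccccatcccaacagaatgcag

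Members of the gene lists were among the called isoforms as well. Vwf-203, the long form of 8834 bases, went from 54.2% to 37.5% and the short Vwf-201 of 1807 bases from 14.01% to 32.8%, with the same direction in each run. Cd34-201, of a sialomucin of endothelium and blood stem cells, went from 52.9% to 63.1%, Mycn-201 from 85.7% to 97.2% and Hnrnpm-206, of an hnRNP, from 62.8% to 38.1%. Runx1 had too few counts for isoform fractions. The transcript classes were level: protein-coding transcripts held a median of 50.3% of counts in early and 49.2% in late cells, retained introns 5.06% and 5.16%, NMD transcripts 4.00% and 4.01% and lncRNAs 8.74% and 8.89%. Processed pseudogenes, mostly copies of abundant genes, held 23.8% and 26.3%, with overlapping ranges (19.7% to 28.3% and 19.9% to 30.7%).

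**Figure D5:**
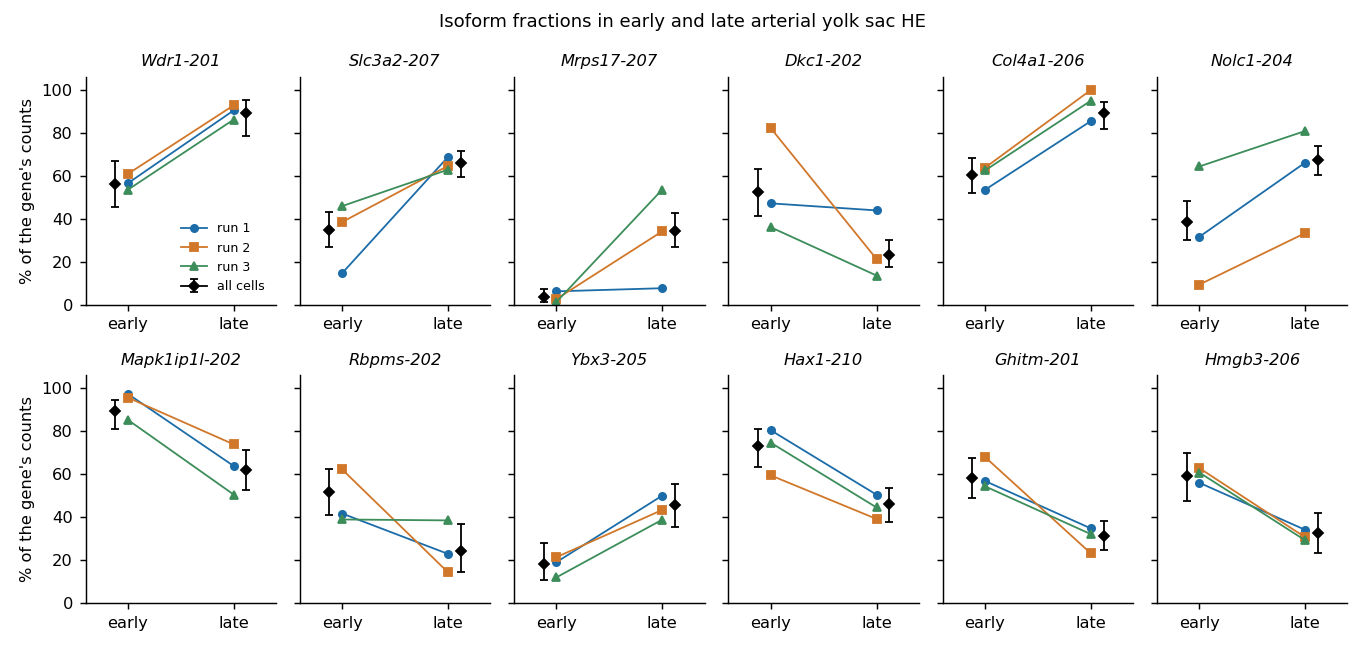
Percent of a gene's counts held by 1 isoform in early and late arterial YS HE, for the 12 genes with the largest difference. Colored lines are the 3 runs and black diamonds all cells with the 95% binomial interval; Wdr1-201 goes from 56.2% to 89.1%, while Mrps17-207 is level in run 1.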

How the data were processed

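Full-length cDNA of single sorted cells was read on a nanopore instrument. After basecalling, trimming and the removal of chimeric reads, the authors placed reads on GENCODE transcripts (minimap2 2.26 in the submitters' processing notes, which also name R 4.3.0 and DESeq2 1.40.2) and let NanoCount assign them. The main values are the estimated counts per transcript as deposited, which carry no scaling and can be fractional. The TPM columns deposited beside them hold these estimates per cell after scaling to a fixed total. Because reads that fit several transcripts are divided between them, short or near-identical forms and gene copies share reads, and the alignment is not stated to use strand.

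Here, cells were grouped by cluster label, and cells under 17595 counts (the median of all 221 cells less 1 scaled MAD, after the study's filter) were left out. Transcript counts were summed per gene and over the cells of a group or run, 0.5 counts were added to each sum before a log2 ratio, and a cell counted as having a gene at 1 count less a tolerance of 0.001, since the deposited value of 1 read is often just under 1. Counts were rounded for intervals, thinning and size factors. A call needed 2-fold (or a dIF over 0.1) over all cells and the same sign in each run; no significance test was run. Genes needed 50 summed counts and a count in 10 cells. Named genes are the 12 highest and 12 lowest with at least 100 counts and 2-fold in each run, the 2 highest and 2 lowest of each list and all members of lists of 8 or fewer, 15 genes of HE and its sort, the 12 genes with the largest dIF, and list members that were called; single values of some list members are not reported here. The members and lists were chosen with earlier results of these data known, the patterns for ribosomal and oxidative phosphorylation genes were narrowed after the files were read, and the HE, LMP and EMP lists are the study's, chosen on short reads of these cells. Overlapping genes, exons and lengths come from GENCODE M21 (GRCm38), matched by identifier and length, and promoters from RefSeq; the release of the deposited annotation was not used for coordinates.

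Alternatives covered stage, sort, library names, plate, library limit, single runs, TPM, size factors, count minimum, added counts, thinning to 16000 counts and the limits on fold and dIF. The calculations were tested on simulated counts with known changes. Python 3.11.15, numpy 2.4.6, pandas 2.3.3, scipy 1.17.1, matplotlib 3.10.9, R 4.3.3 and DESeq2 1.42.0 (size factors only) were used.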

Additional observations from a re-analysis of the deposited data

Results flagged for a closer look

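Of the genes named for arterial YS HE, 7 had the same sign in all 3 runs there and the opposite sign in all 3 runs of another HE population, and these differences were not tested. Fas, higher in late arterial YS HE (log2 ratio 1.43), was lower in late HE YSP (-2.37; 52.9 to 9.75 CPM). Mrps27, with 1.86 in arterial YS HE, had -1.003 in HE YSP (174 to 86.5 CPM), and Igf2, not called in arterial YS HE (0.17), had -1.65 in HE YSP (8738 to 2787 CPM). Fcho2, with 1.67 in arterial YS HE, had -0.71 in HE AGM (65.0 to 39.6 CPM). In HE AGM, 3 genes that fell in arterial YS HE had ratios above 0: Cnn2 (1.36; 30.4 to 78.4 CPM), Tpm1 (0.80; 79.4 to 138 CPM) and Hapln1 (0.32; 63.4 to 79.1 CPM).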

How the results depend on the processing

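No paired analysis was possible because no cell is paired with another in the labels and no test was made. No named gene that was called changed sign. Of the named genes that were not called, Gfi1 (0.27) had -0.05, -0.02 and -0.40 among E10.5 cells, Gfi1 cells and on the plate, and Vwf (-0.57) had 0.07 on the plate. The counts of genes higher and lower, 173 and 220, became 100 and 77 on plate WN-S6-4 at E10.5 (2296 genes tested), 311 and 372 with 20 summed counts as the minimum, 12 and 52 with 200, 60 and 101 after thinning to 16000 counts, 350 and 427 at 1.5-fold and 29 and 40 at 4-fold. Leaving out each run in turn gave 168 to 227 genes higher and 203 to 234 lower, of which only 63 to 96 of the 173 and 115 to 134 of the 220 were called again, since 57 to 96 and 54 to 81 of them fell below the count minimum. On the plate (7 early and 12 late cells), 15 of the 173 and 34 of the 220 were called again, and 141 and 153 were not tested. Among E10.5 cells, 77 and 107 were called again, and 61 and 73 were not tested. The 181 genes with a dIF over 0.1 became 112 among E10.5 cells, 67 on the plate, 237 to 302 without a run, 383 and 23 with 20 and 200 counts per group, 98 after thinning and 37 at a limit of 0.2; of the 181, 49 were called again among E10.5 cells and 39 after thinning.

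The median of the endothelial list (-0.99) was -0.67 among E10.5 cells, -0.76 among Gfi1 cells, -0.74 on the plate, -0.84 with the library limit on the log scale, -1.12 with TPM, -1.09 with size factors, -0.80 with 200 counts and -1.08 to -0.80 without a run. The arterial median (-2.43) stayed between -2.53 and -1.64. Blood transcription factors (0.27) had -0.0030, 0.077 and -0.39 among E10.5 cells, Gfi1 cells and on the plate, 0.48 with TPM, 0.42 with size factors and 0.10 to 0.34 without a run. Blood surface genes (0.66) had 0.80, 0.55 and 0.24 in the same cells, 0.87 with the log limit, 1.19 with 20 counts, 0.97 after thinning and 0.50 to 1.08 without a run. The causes were not tested. Under every alternative no endothelial or arterial gene was called higher. The number called lower ranged from 3 of 23 tested on the plate to 19 of 33 at 1.5-fold, beside 16 of 33 in the main setting. Among named genes, Cdh5 lost its call among E10.5 cells, Gfi1 cells, on the plate, with the log limit and without run 2; Gja5 (-2.05), Nrp1 (-1.23) and Kit (0.43) on the plate; Lyz2 (1.33) among E10.5 cells; Tax1bp1 among E10.5 cells and on the plate; and Fas after thinning. Gja5, Nrp1 and Lyz2 stayed past 2-fold there and lost the call by the sign of a run. Depth limits single genes: 50 counts over 52 cells leave wide counting intervals.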
